A study of Homo sapiens with 11 samples.

Results

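The genes described here encode 9 proteins of the cell surface and internal membranes that are used, or studied, as Ewing sarcoma antigens, namely CD99, XG, STEAP1, STEAP2, IL1RAP, LINGO1, CDH11, ENPP1 and FCGRT. They were chosen by name from 19974 protein-coding genes, with earlier results of these data known. Every peak that touched one of their gene bodies or the 100 kb on either side (GRCh38) was taken from 9 peak lists, which gave 408 peaks of 134925 in all. CD99 and XG are neighbours and their windows overlap, as do those of STEAP1 and STEAP2, so the 9 genes form 7 loci. Chromatin immunoprecipitation with sequencing (ChIP-seq) was performed in SK-N-MC, an established Ewing sarcoma cell line labelled wildtype. Of the 11 samples, 1 each was made for FLI1, for RBBP4, MTA2, HDAC2 and CHD4, which are subunits of the NuRD complex, and for the histone marks H3K27ac, H3K4me1, H3K4me3 and H3K27me3, and 2 were inputs, which were not analysed here. CHD4 was pulled down with an antibody against the Flag tag, and the sources used here do not say how the tagged protein was introduced. The FLI1 antibody is labelled only by clone and catalogue number. With 1 sample per target and unknown read depth there is no replicate error and no test, and every fold enrichment and −log10 p is the authors' own value for that peak.

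Ewing sarcoma is driven by EWSR1::FLI1, a fusion of a prion-like activation domain to the ETS DNA-binding domain of FLI1. The fusion binds runs of the 4-base word GGAA, where it is known to build enhancers, and isolated ETS sites, many of them at promoters. NuRD is a chromatin complex that joins the nucleosome remodeller CHD4 to the deacetylases HDAC1 and HDAC2, with MTA proteins as scaffold and RBBP4 as a histone-binding subunit. H3K27ac marks active enhancers and promoters, H3K4me1 enhancers, H3K4me3 active starts of transcription and H3K27me3 chromatin repressed by Polycomb.

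The loci of the 9 genes, CDH11 apart, were dense in peaks, though not in those of H3K4me3, with a median of 2 per member against 3 over all genes. A member's window held a median of 43 peaks, with a range of 17 to 129, while the median over all protein-coding genes was 17. Per 100 kb of window the medians were 15.2 peaks for the members and 6.60 for all genes. LINGO1 had the most peaks (129, or 31.6 per 100 kb) and CDH11 the fewest (17, or 4.47 per 100 kb). All 9 members had at least 1 peak of every NuRD subunit, of H3K27ac, of H3K4me1 and of H3K4me3. Such windows were common, since 61.6% of all genes had a CHD4 peak in theirs, 81.6% an HDAC2 peak, 70.2% an MTA2 peak, 71.3% an RBBP4 peak, 78.1% an H3K27ac peak, 66.2% an H3K4me1 peak and 85.4% an H3K4me3 peak. No member had an H3K27me3 peak, against 14.5% of all genes.

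**Figure D1:**
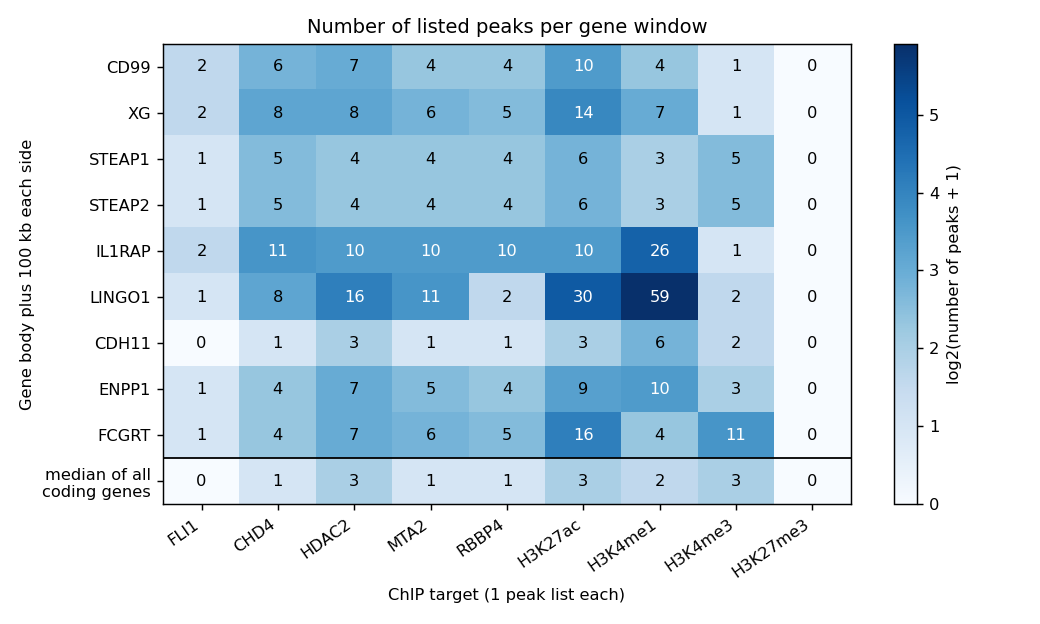
Number of listed peaks of each ChIP target (columns) in the gene body plus 100 kb each side of each member (rows), with the median over 19974 protein-coding genes in the last row. Colour is log2 of the number plus 1. LINGO1 stands out with 59 H3K4me1 and 30 H3K27ac peaks, and CDH11 has no FLI1 peak.

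FLI1 was listed in the windows of 8 of the 9 members, CDH11 being the exception, and in 12.7% of all protein-coding genes' windows. These 8 members shared 8 FLI1 peaks at 6 loci. CD99, XG and IL1RAP each had 2 or more FLI1 peaks, which 2.63% of all genes had. Counting within 100 kb of the annotated start only left the count at 8 of 9 members, against 10.6% of all genes. Gene length then enters only for genes without a strand, which were searched around both ends. The 8 peaks had a median fold enrichment of 9.76 and a median −log10 p of 33.1, and the 1561 FLI1 peaks as a whole 7.29 and 19.0. By fold enrichment 7 of the 8 lay in the upper 50% of the FLI1 list. FCGRT alone had a FLI1 peak within 1 kb of its start, which 0.741% of all genes had. Inside the body of a member lay 3 of the 8 peaks, and the share of all FLI1 peaks inside gene bodies is not given here.

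Sites with all 4 NuRD subunits, that is, overlapping peaks of CHD4, HDAC2, MTA2 and RBBP4 merged into 1 region, numbered 18 in the members' windows, of 4917 in the genome. Of the 9 members 8, again without CDH11, had at least 1 such site in their windows, against 38.0% of all genes. All 8 had at least 2, against 14.7% of all genes. The windows held 78 merged NuRD sites in all, of which 35 had 1 subunit, 17 had 2, 8 had 3 and 18 had all 4. The shares over all merged sites of the genome are not given here, so these counts only describe the windows. Of the 18, 6 overlapped a FLI1 peak, 15 an H3K27ac peak, 10 an H3K4me1 peak and 5 an H3K4me3 peak. Over all 4917 sites these shares were 17.2%, 62.8%, 53.4% and 30.0%.

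**Figure D2:**
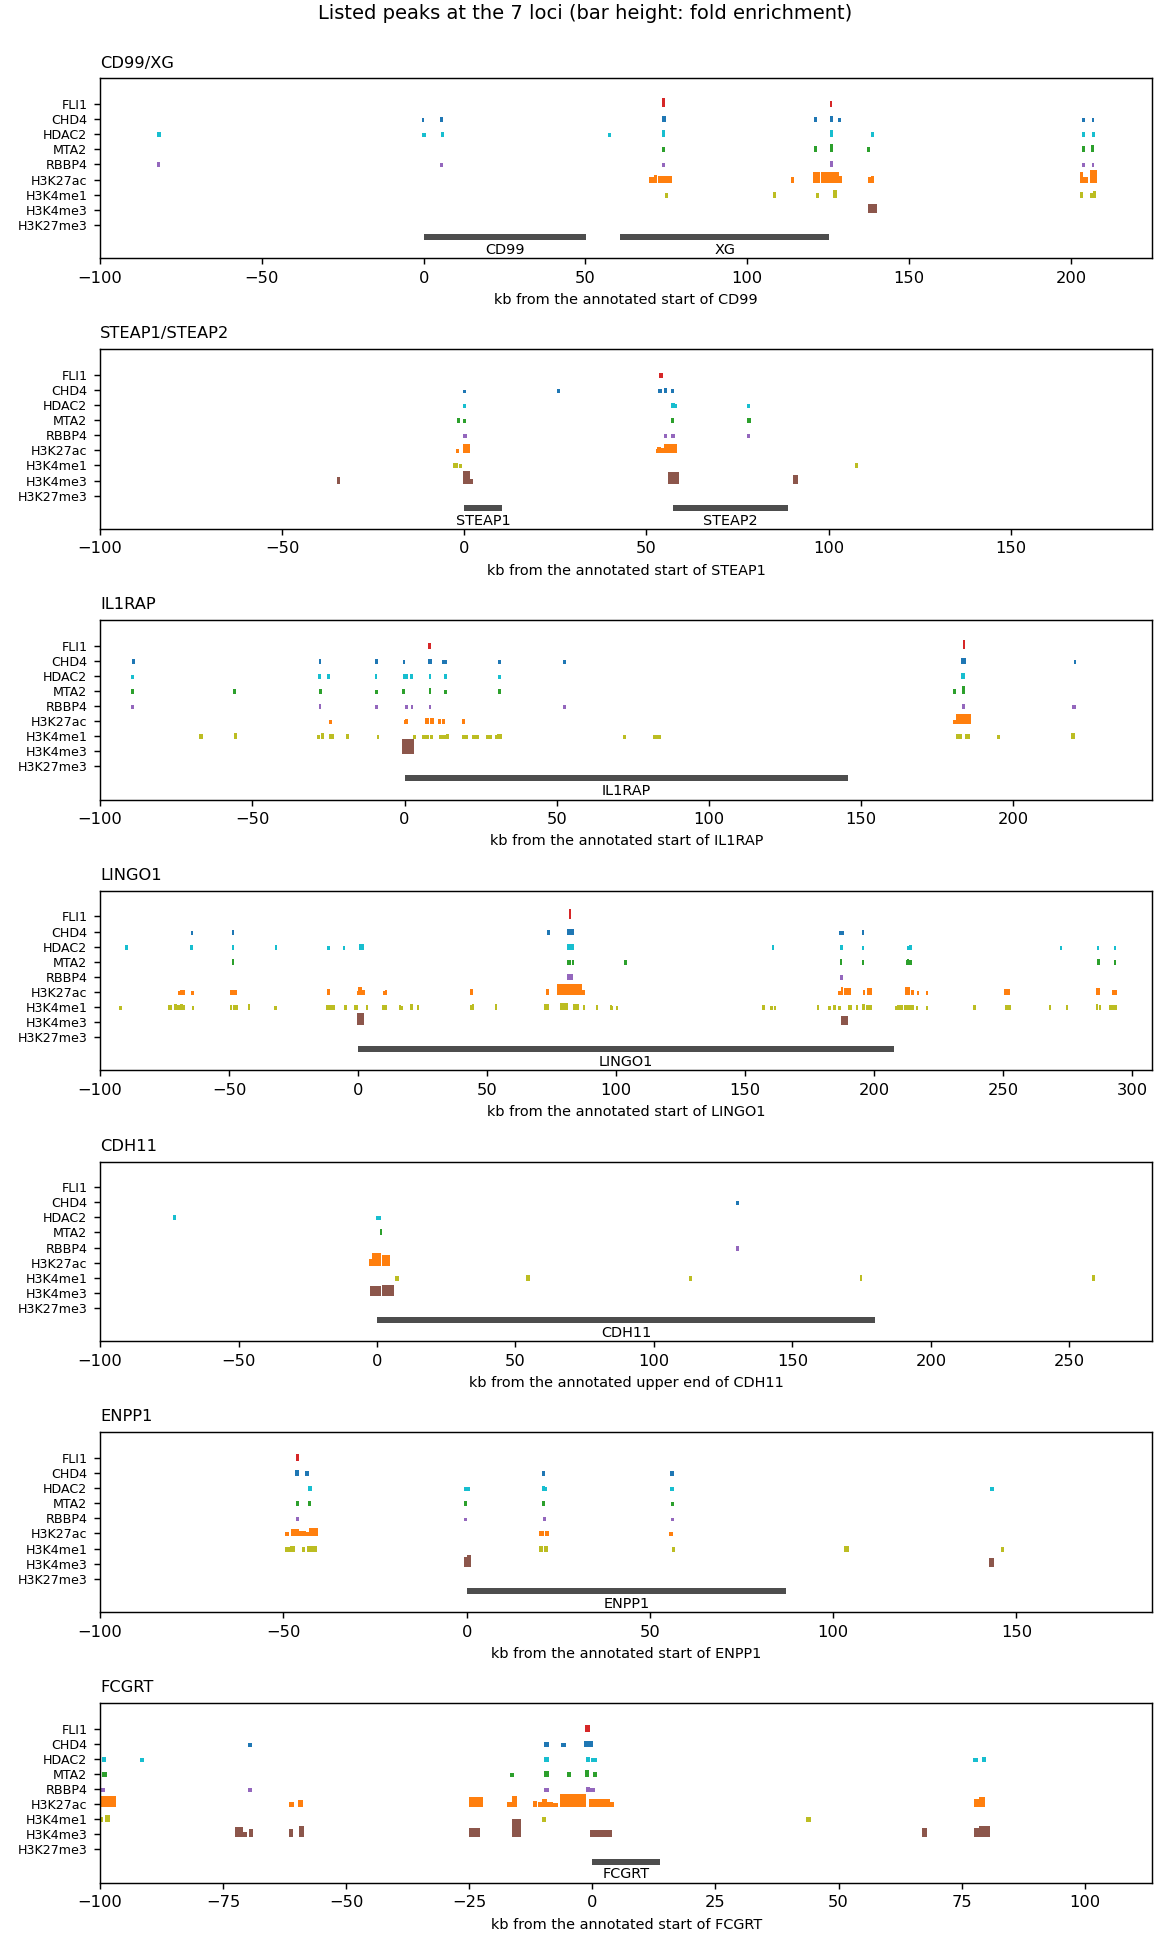
Map of the listed peaks at the 7 loci. The x axis is the distance in kb from the annotated start of the named gene in its direction of transcription (for CDH11, from its upper annotated end), each row is 1 ChIP target, bar height is fold enrichment on 1 scale for all rows, very narrow peaks are widened to stay visible, and grey bars are the members' gene bodies. FLI1 peaks (red) stand over stacks of subunit peaks at 5 of the 6 loci that have one, and just upstream of STEAP2 the FLI1 peak stands beside them.

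CD99 (chrX:2691295-2741309), the surface glycoprotein whose membrane staining is a diagnostic mark of Ewing sarcoma, and XG (chrX:2752040-2816500), a blood group antigen of the same family, lie head to tail at the edge of the pseudoautosomal region. Neither FLI1 peak of the locus was at a start. The higher one (chrX:2765252-2765620) lay inside XG, 13.4 kb from the XG start and 74.1 kb from the CD99 start, with a fold enrichment of 15.6 and a −log10 p of 58.1, rank 82 of 1561 by fold and 159 by −log10 p. It was covered by CHD4 at 8.61-fold (rank 244 of 13288), HDAC2 at 10.9-fold (rank 143 of 20633), MTA2 at 6.81-fold and RBBP4 at 4.66-fold, and by an H3K27ac peak of 3463 bp at 8.65-fold.

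The lower FLI1 peak of the locus (chrX:2817003-2817312) lay 0.657 kb past the annotated end of XG, with a fold enrichment of 7.66 and a −log10 p of 20.2, rank 711. The NuRD subunits were higher there than at the first. CHD4 reached 9.41-fold (rank 115), HDAC2 12.2-fold (rank 53), MTA2 14.2-fold (rank 259 of 13462) and RBBP4 9.94-fold (rank 86 of 13725). All 4 lay within the top 2% of their lists, and this was the only 4-subunit site of the 18 whose mean position was within the top 10%. An H3K27ac peak of 5388 bp at 18.6-fold (rank 545 of 21500) covered the site, and the H3K4me1 peak next to it, 0.550 kb from the FLI1 summit, had 11.6-fold enrichment (rank 79 of 31247). Thus the order of the XG peaks by FLI1 was the reverse of their order by each subunit.

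Another pair of 4-subunit sites in the XG window, 143 and 146 kb from the XG start and nearest to the end of ARSD, had no FLI1 peak. The H3K27ac peak at the second of them had 22.4-fold enrichment (rank 167), the highest of the locus. The start of CD99 had an HDAC2 peak of 1182 bp at 5.29-fold (−log10 p 25.8) and a CHD4 peak 0.104 kb away at 4.45-fold (−log10 p 19.6). The XG start had no listed peak within 1 kb, and the HDAC2 peak nearest to it lay 3.05 kb away at 4.60-fold.

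The missing marks at these starts cannot be read as absent. Peaks are numbered along the genome in every list, and around CD99 and XG some numbers are skipped. The H3K4me3 list skips 6 between consecutive peaks at chrX:1592601 and chrX:2828572, a stretch of 1.24 Mb that holds both starts. In the same way the H3K27ac list skips 10 and the MTA2 list 3 over stretches of chromosome X that hold both starts. The H3K4me1 list skips 5 and the H3K27me3 list 1, but there the listed peak before lies on a scaffold outside chromosome X. These numbers may belong to that scaffold, or anywhere in the first 2.77 Mb (H3K4me1) or 72.3 Mb (H3K27me3) of chromosome X. The CHD4, HDAC2 and RBBP4 lists skip no number anywhere, and the FLI1 list none around CD99 and XG. The sources used here give no reason for the skipped numbers. The 1 listed H3K4me3 peak of the locus belonged to the start of GYG2, a neighbouring gene. At the other 7 members the lists of the NuRD subunits, FLI1, H3K27ac, H3K4me1 and H3K4me3 skip nothing over the start, and the H3K27me3 list skips 1 around FCGRT.

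STEAP1 (chr7:90154469-90164827) and STEAP2 (chr7:90211740-90243408) encode six-transmembrane proteins of the metalloreductase family. STEAP2 reduces iron and copper, and STEAP1 is a target of antibody therapies. Their locus had the weakest of the 8 FLI1 peaks. It lay at chr7:90208334-90208589, 3.29 kb before the STEAP2 start and 54.0 kb past the STEAP1 start, with a fold enrichment of 5.74 and a −log10 p of 13.8, rank 1093 of 1561. It was also the only one of the 8 with no NuRD subunit over it. Its summit fell in the gap between 2 H3K27ac peaks, 0.168 kb from one at 8.21-fold and 0.151 kb from the other at 6.43-fold, and the nearest CHD4 peak ended 0.135 kb from it. With a −log10 p of at least 15 required, STEAP1 and STEAP2 had no FLI1 peak, and 6 of 9 members kept one, against 6.56% of all genes.

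Both STEAP starts instead carried all 4 subunits. At the STEAP2 start the −log10 p was 50.8 for HDAC2, 30.2 for CHD4, 26.97 for RBBP4 and 21.2 for MTA2, with fold enrichments of 5.76, 4.69, 4.43 and 6.54 in the same order. At the STEAP1 start it was 30.2 for HDAC2, 10.4 for CHD4, 9.71 for RBBP4 and 10.5 for MTA2, and the CHD4 peak, at 2.47-fold, ranked 13253 of 13288. The subunit peaks were thus weaker at STEAP1, while both starts had like levels of active marks. H3K27ac was 15.9-fold at STEAP2 and 15.4-fold at STEAP1, and H3K4me3 was 20.4-fold at STEAP2 and 22.1-fold at STEAP1.

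IL1RAP (chr3:190514085-190659750) is the co-receptor shared by the receptors for interleukin-1, interleukin-33 and interleukin-36. Its window held 80 peaks, 10 to 11 of each NuRD subunit and 26 of H3K4me1, and the 6 sites with all 4 subunits were more than at any other of the 7 loci. The stronger FLI1 peak (chr3:190697653-190698007) lay 184 kb from the start and 38.1 kb past the annotated end of the gene. Its −log10 p of 99.5 was rank 16 of 1561, and its fold enrichment of 13.1 was rank 217. CHD4 there was 6.90-fold (−log10 p 64.8), HDAC2 7.28-fold (57.4), MTA2 12.3-fold (66.0, rank 567 by fold) and RBBP4 5.37-fold (37.5). The site sat in an H3K27ac peak of 5078 bp at 17.7-fold, whose −log10 p of 142 was rank 80 of 21500, and H3K4me1 peaks flanked it on both sides, 0.766 kb and 0.295 kb from the FLI1 summit.

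The other IL1RAP FLI1 peak (chr3:190522070-190522621) was 8.24 kb into the gene, with a fold enrichment of 7.61 and a −log10 p of 31.6, rank 720 by fold. It too carried all 4 subunits, from RBBP4 at 3.30-fold to MTA2 at 7.49-fold, and its summit fell between 2 H3K27ac peaks of 9.44-fold and 8.49-fold. It was the only one of the 8 that overlapped an H3K4me1 peak, at 5.03-fold. At the start of IL1RAP, H3K4me3 covered 4012 bp at 27.9-fold (−log10 p 163, rank 781 of 16089), the highest H3K4me3 peak at a member's start. All 4 subunits were within 1 kb of it, HDAC2 with the highest −log10 p (50.7), while the H3K27ac peaks there were low, at 7.34-fold and 4.10-fold. The remaining 3 sites with all 4 subunits lay 89.1, 27.8 and 9.33 kb before the start, and none of them overlapped H3K27ac.

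LINGO1 (chr15:77613027-77820900, read from the minus strand) encodes a leucine-rich-repeat co-receptor of the nervous system known for restraining myelination and axon growth. Its FLI1 peak was the highest of the 8 by fold enrichment. It lay at chr15:77738464-77739281 inside the gene, 82.1 kb from the start, with a fold enrichment of 17.8 (rank 41 of 1561), a −log10 p of 93.6 (rank 25) and a width of 818 bp. It sat in an H3K27ac peak of 9465 bp at 19.9-fold, whose −log10 p of 152 was rank 40 of 21500. CHD4 was 7.24-fold (−log10 p 75.5), HDAC2 6.46-fold (66.4) and RBBP4 7.19-fold (66.4, rank 748 by fold), in peaks of 2.36 to 2.88 kb, and MTA2 was 5.78-fold (37.8). The H3K4me1 peaks on either side, 1.14 and 0.863 kb from the summit, had 9.02-fold and 10.8-fold enrichment, the second at rank 220 of 31247.

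LINGO1 also had the longest window of the members, at 408 kb, and the most kb under H3K4me1 and H3K27ac. H3K4me1 covered 55.6 kb and H3K27ac 36.0 kb of it, against medians of 1.01 and 1.75 kb over all protein-coding genes' windows, and 99.97% and 99.9% of genes had less. These totals are not divided by window length. FCGRT had 24.6 kb of H3K27ac in a window of 214 kb, and more H3K4me3 (16.5 kb) than LINGO1 (5.20 kb). Only 2 of the 18 NuRD sites at LINGO1 had all 4 subunits, the one at the FLI1 peak and one 187 kb from the start. Its RBBP4 peaks, the 2 at these sites, contrast with 16 of HDAC2 and 11 of MTA2. The start carried HDAC2 at 7.51-fold and H3K4me3 at 22.4-fold, and H3K27ac at 12.9-fold lay 0.161 kb inside it. CHD4, MTA2 and RBBP4 had no peak within 1 kb.

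FCGRT (chr19:49512661-49526428), the heavy chain of the neonatal Fc receptor that recycles IgG and albumin, was the one member with a FLI1 peak within 1 kb of its start. The peak (chr19:49511426-49511882) had its summit 1.06 kb before the start, a fold enrichment of 9.89 and a −log10 p of 29.9, rank 446 of 1561. CHD4 at the same place was 8.16-fold (−log10 p 39.6, rank 343 of 13288), HDAC2 6.81-fold (28.5), MTA2 11.6-fold (33.2, rank 773 of 13462) and RBBP4 5.33-fold (17.02), and the MTA2 summit was 3 bp from the FLI1 summit. H3K27ac stopped on both sides of it. One peak of 5368 bp at 23.5-fold (rank 115 of 21500) ended 0.196 kb from the FLI1 summit and another of 4257 bp at 13.3-fold began 0.301 kb on the other side and ran over the start. H3K4me3 at the start had 11.4-fold enrichment, the lowest of the members with such a peak. The FCGRT window is crowded with other genes, and 10 of its 11 H3K4me3 peaks lay elsewhere.

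ENPP1 (chr6:131808020-131895155) is an ectoenzyme that makes pyrophosphate from extracellular ATP and hydrolyses cGAMP. Its FLI1 peak (chr6:131761761-131762069) lay 46.1 kb before the start, where the nearest gene end was that of ENPP3, with a fold enrichment of 9.63 and a −log10 p of 34.6, rank 467. CHD4 was 7.38-fold there (rank 726), MTA2 6.35-fold and RBBP4 3.76-fold. HDAC2 had no peak closer than 3.12 kb to the FLI1 summit, so this FLI1 peak was the only one of the 8 with some but not all subunits. H3K27ac of 11.3-fold covered it and H3K4me1 peaks lay on both sides, 0.733 and 1.28 kb from the summit. At the start of ENPP1 a gap between H3K4me3 peaks of 16.7-fold and 19.6-fold held the annotated position. HDAC2, MTA2 and RBBP4 peaks of −log10 p 9.96 to 20.6 lay there, and no H3K27ac peak. By fold, HDAC2 (3.92 and 3.73) and RBBP4 (2.94) were low in their lists, while MTA2 at 6.93-fold was rank 5975 of 13462. The nearest H3K27ac peak was 19.8 kb into the gene at 6.96-fold, beside a 4-subunit site 21.0 kb from the start.

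CDH11 (chr16:64943753-65123744) is the cadherin of osteoblasts and mesenchymal cells. It differed from the other 8 members in having neither a FLI1 peak nor a 4-subunit site in its window. The tables used here give no strand for CDH11, so a peak within 1 kb of either annotated end counted as at its start, and distances are given from the upper end, where the active marks lay. No target had a peak within 1 kb of the lower end. H3K27ac at the upper end was 23.3-fold (rank 126 of 21500, −log10 p 87.9), the highest H3K27ac peak at a member's start, and a neighbouring one was 18.0-fold. H3K4me3 peaks of 17.8-fold and 18.1-fold covered 8.43 kb together. HDAC2 was 5.55-fold and 4.19-fold at this end and MTA2 8.44-fold 1.24 kb inside it. The only CHD4 and RBBP4 peaks of the window lay together, 49.8 kb from the other end of the gene, at 5.54-fold and 4.39-fold.

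Read across the loci, the FLI1 peaks of the members usually carried NuRD and H3K27ac. RBBP4, MTA2 and CHD4 each overlapped 7 of the 8 and HDAC2 6, and all 4 together 6. Of all 1561 FLI1 peaks, CHD4 overlapped 68.8%, MTA2 77.2%, RBBP4 67.8%, HDAC2 70.9% and all 4 together 55.4%. H3K27ac overlapped 6 of the 8 and 49.3% of all FLI1 peaks, and H3K4me1 1 of the 8 and 8.01% of all. H3K4me3 overlapped none of the 8 and 8.46% of all, and H3K27me3 none of either. With so few peaks these counts are a description and set no member peak apart from the FLI1 list.

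**Figure D3:**
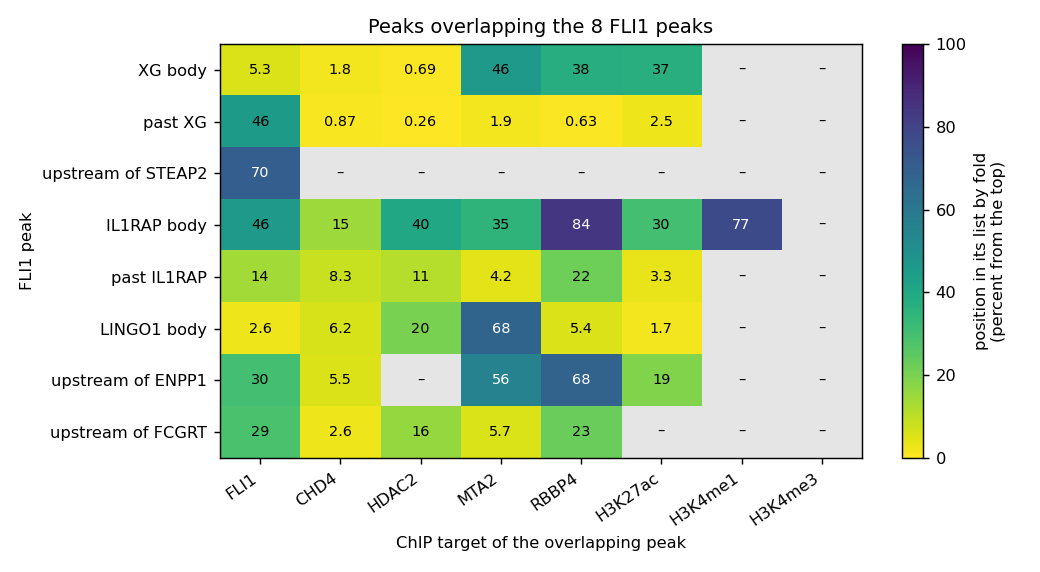
The 8 FLI1 peaks of the members' windows (rows) and the overlapping peak of each target (columns), as the position of the peak in its own list by fold enrichment in percent from the top, so that small values are high peaks. A dash on grey means no overlapping peak. The row past XG is within the top 3% for all 4 subunits and H3K27ac though its FLI1 peak is at 46%, and the row upstream of STEAP2 is empty.

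How the heights of FLI1 and NuRD compared over the 8 peaks depended on the measure. By fold enrichment, the highest FLI1 peak, in LINGO1, had MTA2 at rank 9125 of 13462, and the peak past XG, at rank 711 for FLI1, was the highest of the 8 in every subunit. By −log10 p the same LINGO1 MTA2 peak was rank 1009, and the peak past XG was the highest in no subunit. The distal IL1RAP and LINGO1 peaks, which had the highest −log10 p for FLI1 (99.5 and 93.6), also had the highest for CHD4 (64.8 and 75.5), HDAC2 (57.4 and 66.4) and RBBP4 (37.5 and 66.4), and the IL1RAP peak had the highest for MTA2 (66.0). By fold, CHD4 was within the top 15% of its list at all 7 peaks where it was listed, whereas RBBP4 ranged from the top 0.627% past XG to 84.2% in the IL1RAP body. The FLI1 ranks differed too, since the distal IL1RAP peak was rank 217 by fold enrichment and 16 by −log10 p, while the XG body peak was 82 by fold and 159 by −log10 p. H3K4me1 was more often beside the FLI1 summits than over them. It lay on both sides within 2 kb at 3 of the 8, in LINGO1, past IL1RAP and before ENPP1, against 41.1% of all FLI1 peaks. At XG the skipped numbers of the H3K4me1 list may fall on the lower side of the first peak, which is therefore left unread.

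At the annotated starts, H3K4me3 was within 1 kb in 7 of 9 members and H3K27ac in 6 of 9, against 56.2% and 38.0% of all protein-coding genes. HDAC2 was there in 8 of 9 (37.7% of all genes), CHD4 in 5 (9.70%), MTA2 in 5 (19.8%) and RBBP4 in 5 (21.2%). All 4 subunits were at the starts of STEAP1, STEAP2, IL1RAP and FCGRT, that is 4 of 9, against 5.08% of all genes. This count depends on the distance allowed. The RBBP4 peak was 604 bp from the IL1RAP start and the nearest MTA2 peak 417 bp from the FCGRT start. Within 250 bp only STEAP1 and STEAP2 kept all 4, and the share of all genes at that distance is not given here. H3K4me1 was at 2 of 9 starts, STEAP1 and LINGO1, against 5.01%, and H3K27me3 at none, against 2.25%. Both members without H3K4me3 were CD99 and XG, whose starts fall in the stretch of skipped numbers, and H3K27ac was also missing at ENPP1. CDH11 was counted by either of its ends, and without it H3K4me3 was at 6 of 8 starts, H3K27ac at 5 and HDAC2 at 7.

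**Figure D4:**
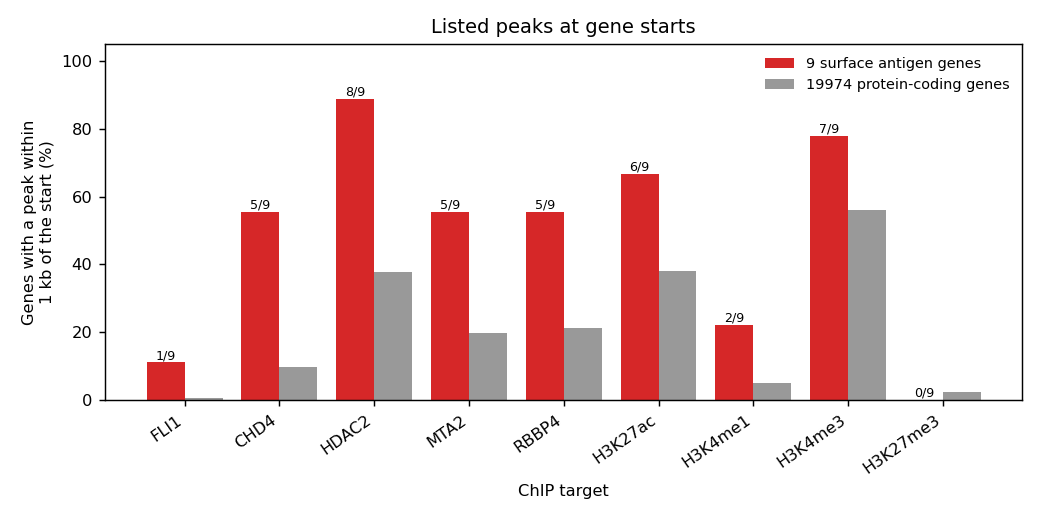
Share of genes with a listed peak within 1 kb of the annotated start, for the 9 members (red, with the count of 9 above each bar) and for 19974 protein-coding genes (grey), by ChIP target. HDAC2 is listed at 8 of the 9 starts and H3K27me3 at none. For genes without a strand in the tables, CDH11 among them, either annotated end counted as the start.

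The promoter sequences show how unlike these starts are. RefSeq sequences (GRCh38.p14, 250 bases before to 50 after each start) matched 8 of the 9 members, CDH11 being the one without an entry. The 4 printed here are those of both head-to-tail or neighbouring pairs, CD99 with peaks of CHD4 and HDAC2 over it and XG with none, STEAP2 with peaks of all 4 subunits over it, and STEAP1 with peaks of CHD4, HDAC2 and MTA2 over it, its RBBP4 peak lying just past the printed stretch. They are chrX:2691045-2691344, chrX:2751790-2752089, chr7:90154219-90154518 and chr7:90211490-90211789, all on the plus strand, 5′ to 3′, with GGAA or its complement TTCC in capitals.
CD99: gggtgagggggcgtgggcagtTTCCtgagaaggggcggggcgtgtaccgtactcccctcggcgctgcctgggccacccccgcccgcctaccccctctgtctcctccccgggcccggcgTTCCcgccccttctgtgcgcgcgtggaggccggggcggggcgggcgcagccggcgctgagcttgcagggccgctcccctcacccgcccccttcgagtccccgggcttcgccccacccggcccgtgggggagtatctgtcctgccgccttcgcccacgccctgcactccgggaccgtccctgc
XG: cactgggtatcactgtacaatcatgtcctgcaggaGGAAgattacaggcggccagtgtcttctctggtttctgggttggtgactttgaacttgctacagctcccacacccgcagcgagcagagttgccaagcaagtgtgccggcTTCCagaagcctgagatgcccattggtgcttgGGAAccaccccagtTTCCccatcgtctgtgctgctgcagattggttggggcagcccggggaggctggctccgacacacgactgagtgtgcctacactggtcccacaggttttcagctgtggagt
STEAP1: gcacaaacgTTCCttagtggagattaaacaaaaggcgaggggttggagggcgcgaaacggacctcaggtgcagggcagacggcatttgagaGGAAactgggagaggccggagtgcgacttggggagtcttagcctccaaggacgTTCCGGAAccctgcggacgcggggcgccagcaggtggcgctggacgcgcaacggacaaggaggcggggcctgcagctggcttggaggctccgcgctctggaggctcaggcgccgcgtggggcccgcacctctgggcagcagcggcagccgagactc
STEAP2: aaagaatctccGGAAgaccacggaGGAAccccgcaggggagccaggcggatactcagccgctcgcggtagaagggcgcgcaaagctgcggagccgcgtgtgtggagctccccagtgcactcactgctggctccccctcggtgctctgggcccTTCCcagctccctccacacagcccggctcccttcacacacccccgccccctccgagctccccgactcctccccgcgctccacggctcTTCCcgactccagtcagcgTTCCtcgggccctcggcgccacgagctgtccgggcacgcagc

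The CD99 promoter had 77% G or C and an observed-over-expected CpG ratio of 0.751, and the XG promoter 57.3% and 0.325. STEAP1 had 66.7% and 0.844 and STEAP2 70.3% and 0.794. The medians over 34961 RefSeq promoters were 58.7% and 0.580. Only the promoter at the annotated start was counted for each member, whereas the 34961 include further promoters of the same genes. A CpG ratio of at least 0.6 with over 50% G or C was met by 5 of the 8 members' promoters, against 46.9% of all promoters. XG, FCGRT (57% and 0.30) and LINGO1 (56% and 0.269) were not among them. LINGO1 promoters farther inside the gene, under its HDAC2, H3K27ac and H3K4me3 peaks, had 71% to 75% and 0.739 to 1.01. GGAA or TTCC occurred in 2 to 6 places in each of the 8 promoters, and 95.5% of all promoters hold it. No member's promoter held GGAAGGAA on either strand, a motif found in 3.67% of all promoters. The motif CCGGAAG, which contains GGAA and was searched on both strands, was found in 1 of the 8, that of STEAP2, starting 241 bases before the start, and in 10.3% of all promoters. A further LINGO1 promoter inside the gene (chr15:77720702-77721001), not counted among the 8, also held CCGGAAG. Among the 160 promoters that overlapped a FLI1 peak 37.5% held it, and the STEAP2 promoter did not overlap one.

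Lists of other genes show how the members compare in FLI1 occupancy. Among 20 other surface proteins studied in Ewing sarcoma 7 had a FLI1 peak in their windows, the strongest by −log10 p being those of LIPI (60.0), KIT (51.6) and ADGRG2 (29.8). Of 16 blood cell surface proteins 3 had one, CD79A, PTPRC and CD4, and of 25 relatives of the members 5, with LINGO2, CDH12 and STEAP4 the strongest. Among these 5 is ENPP3, whose FLI1 peak is the one of the ENPP1 window and so not a separate peak. The members' 8 of 9 was the highest share among these 4 groups, but the members were chosen as known Ewing antigens. H3K4me3 was at the start of 7 of 9 members, 16 of 20 other Ewing surface genes, 11 of 12 widely expressed genes, 1 of 16 blood genes and 5 of 25 relatives. In the same order, HDAC2 was at 8, 14, 10, 0 and 3 starts and CHD4 at 5, 6, 0, 0 and 1. MTA2 was at 5, 5, 2, 0 and 0 and RBBP4 at 5, 6, 3, 0 and 1. A site with all 4 subunits was in the windows of 8, 15, 5, 6 and 7 genes of these groups. HDAC2 at the start was thus common in the other Ewing surface and widely expressed genes too.

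The label of the line was checked against marker genes. Of 10 fusion targets and core factors of Ewing sarcoma that are not members, 9 had H3K27ac at their starts and 7 had a FLI1 peak in their windows, with CAV1 (−log10 p 100.1), KLF15 (90.5) and PRKCB (62.4) the strongest. HDAC2 was at the start of 8 of these 10 genes, RBBP4 of 8, MTA2 of 5 and CHD4 of 4, and 9 had a 4-subunit site in their windows. None of 4 muscle, 4 blood or 4 neural crest and neuronal markers had H3K27ac or H3K4me3 at its start. H3K4me3 was at the start of 2 of 4 epithelial and 3 of 4 mesenchymal markers, and H3K27ac at 2 of 4 and 2 of 4.

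The genes most like each member were found by ranking every protein-coding gene by the highest fold enrichment of each of the 9 targets in its window and averaging the difference in percentile. Genes whose windows share a peak with the member's window were left out. STEAP1 and STEAP2, which share the highest peak of each target listed there, were thus not paired with each other. BCAS1 was most like CD99 (1.88 percentile points), RAD51B most like XG (2.17), GLG1 most like FCGRT (1.86), RAVER2 most like LINGO1 (2.48) and XRCC3 most like IL1RAP (2.63, level with ZFYVE21). SDE2 was most like both STEAP genes (3.78). CDH11 and ENPP1 had no gene so close among those kept, the nearest being CACNB1 at 5.86 and KCNH6 at 5.41 points. The median difference from all genes was 24.4 to 41.7 points. None of these 9 pairings was kept when −log10 p or the number of peaks replaced fold enrichment.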

How the data were processed

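ChIP-seq peak lists from SK-N-MC cells were used, 9 in all with 1 sample for each target, grouped by the antibody and title in the labels. Per the submitters' processing notes, the tools were BWA 0.7.17, bedtools 2.27.1, deepTools 3.2.1, FastQC 0.11.7, SAMtools 1.9 and Trimmomatic 0.36, and the build was GRCh38. MACS2 appears only in the deposited peak names. The sources used here do not give the control, any pooling or any excluded regions. Fold enrichment is a ratio to the local background computed by the authors' peak caller, and −log10 p and −log10 q were deposited with it. Summit offsets were used as deposited. Depth is unknown, so unlisted does not mean unoccupied.

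Coordinates were made 1-based. Gene ends came from a RefSeq table (GRCh38.p14) and strand from RefSeq promoters, with a peak near either end counted where no strand was given, for CDH11 and for all genes alike. Overlap meant at least 1 bp. Overlapping peaks of the 4 subunits were merged. Counts of genes were set beside all 19974 protein-coding genes of the table, chromosome Y left out. Ranks are within a list by fold enrichment unless stated. Python 3.11.15, numpy 2.4.6 and pandas 2.3.3 were used, and the overlap and merging steps were tested on simulated peaks in 500 queries. The members, comparison lists and markers were chosen with earlier results of these data known. Named by rule were all members, all FLI1 peaks and 4-subunit sites, the strongest and nearest peak of each target, the gene nearest to a described peak, the most similar gene per member and the 3 strongest genes of each surface list, and CAV1, KLF15 and PRKCB by the same measure. Alternatives covered the window, the −log10 p minimum, the overlap rule and the distance from the start. Some genes and peaks that the rule names are not reported here. With 1 sample per group no replicate could be left out.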

Additional observations from a re-analysis of the deposited data

How the results depend on the processing

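Of the values that sum up a comparison, 19 of 25 recomputed under an alternative stayed within 1.5 times the reported one. All are counts without a direction, and some could not change. The FLI1 list has 1561 peaks, fewer than 2000, and CD99 and XG had no H3K4me3 at their starts to lose. By either measure 2 FLI1 peaks of the windows lay in the top 10% of the list. Those by fold were in LINGO1 and the XG body, and those by −log10 p in LINGO1 and past IL1RAP. The 408 peaks of the windows became 249 with 10 kb each side of the gene bodies and 73 with only the 2000 strongest peaks of each list. The members with a FLI1 peak became 5 of 9 with 10 kb, where 4.19% of all genes had one, because CD99, STEAP1 and ENPP1 have theirs farther away. They stayed at 8 of 9 with 50 kb (8.44% of all genes) and 250 kb (24.2%) and were 6 of 9 at a −log10 p of at least 15 (6.56%). Of the 18 sites with all 4 subunits, 9 were left when every subunit needed a −log10 p of at least 15. Of the 9 most similar genes 0 were kept by −log10 p and 0 by the number of peaks. Counting around the start only, keeping 1 member per locus and leaving out CD99 and XG, or CDH11, were chosen after seeing the data. The search for GGAA runs under the FLI1 peaks was not run, since no genome was used here. No paired analysis was possible because each target has 1 sample and no test was made. Unknown depth limits every absence, and the skipped peak numbers at CD99 and XG limit H3K4me3, H3K27ac and MTA2 there. Those of the H3K4me1 and H3K27me3 lists, which cannot be placed on chromosome X with certainty, may limit these marks there too.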
